A study of Mus musculus with 22 samples.

Results

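The interaction of pregnancy and microbiota is the change of a gene's liver expression with pregnancy in germ-free mice minus its change with pregnancy in conventional mice. It was estimated from all 22 of the 22 libraries of the study, for every gene that passed a filter on low counts, and again from 21 libraries without conventional pregnant replicate 2. Each library is liver total RNA from 1 female C57BL/6 mouse. Among conventional mice 6 were non-pregnant and 5 pregnant, and among germ-free mice likewise 6 and 5. Conventional mice carry an ordinary microbiota, which germ-free mice lack from birth; autoclaved chow, water and bedding were common to all groups. Livers of pregnant mice were taken at gestation day 15. Conventional females were mated overnight at 8 weeks, whereas germ-free females were kept with males for 72 hours at 11 to 15 weeks and their first day of gestation was assumed to be day 2. The labels give an age with no unit, of 70 to 77 in both conventional groups, 92 to 105 in the germ-free non-pregnant group and 91 to 121 in the germ-free pregnant group. A difference due to microbiota therefore cannot be told apart from age or from an unequal gestational stage.

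In pregnancy the maternal liver enlarges and shifts its metabolism under placental lactogens, prolactin, growth hormone and sex steroids. Many mouse liver cytochrome P450 genes, which encode enzymes that oxidise drugs, steroids and fatty acids, are set by the sex-specific pattern of growth hormone release. The gut microbiota also acts on the liver, through bacterial products carried by the portal blood and through bile acids that bacteria modify. The series asks how the microbiome bears on hepatic drug-processing genes in pregnancy, and the interaction is the direct form of that question: it is 0 where pregnancy shifts a gene equally in both kinds of mice.

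Total estimated counts were 18064491 to 30036912 per library. Mitochondrially encoded genes took 5.90% to 32.0% of them, with ranges that overlapped between all 4 groups. All 10 hepatocyte-defining genes were detected, at a summed level of 77140.2 to 300510 CPM, that is, counts scaled to the size of the library. Conventional pregnant replicate 2 stood apart from the other 21 libraries. Its summed level was above all of theirs for 50 interferon response genes (4548 CPM against 883 to 1995), for 9 MHC class II and dendritic cell markers (1765 CPM against 86.0 to 605) and for 12 neutrophil markers (87.3 CPM against 1.71 to 7.33). Its summed level of 61 drug-metabolising P450 genes was the lowest of all, at 14035 CPM against 16603 to 28317 CPM. Interactions are therefore given with all libraries and then without it.

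Pregnancy changed the expression of many liver genes in both kinds of mice, and few genes showed a detectable difference between these changes. In conventional mice 875 genes rose (5.49% of 15928 tested) and 561 fell (3.52%) with pregnancy, and in germ-free mice 1139 rose (7.15%) and 574 fell (3.6%), or 939 and 821 with upper quartile scaling. With conventional pregnant replicate 2 left out, 669 rose and 377 fell in conventional mice, and 1283 rose and 716 fell in germ-free mice. In the fit of all 22 libraries, 868 genes passed in both kinds of mice, 577 higher and 291 lower, and 0 passed in opposite directions. They made up 60.4% of the conventional and 50.7% of the germ-free calls. For the interaction itself, edgeR's quasi-likelihood test with Benjamini-Hochberg adjustment called 0 genes positive and 0 negative (0% of 15928), where called means an adjusted p under 0.05. At an unadjusted p under 0.05 there were 370 positive (2.32%) and 533 negative genes (3.35%), and 271 and 665 with upper quartile scaling. Without conventional pregnant replicate 2, edgeR called 1 positive gene, Cyp2b13 (0.00619% of 16155), and 0 negative genes, with 352 positive (2.18%) and 374 negative genes (2.32%) at an unadjusted p under 0.05. DESeq2 called 2 positive (0.0126%) and 5 negative genes (0.0314%) from the 22 libraries, and limma-voom with quality weights called 1 positive and 1 negative gene (0.00628% each). Cyp2b13 and Scd1 were called by both of these tools.

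For most genes that passed in only 1 kind of mouse, the difference itself did not pass even without adjustment. Of 568 genes called only in conventional mice, 149 had an interaction at an unadjusted p under 0.05. So did 188 of the 845 called only in germ-free mice and 33 of the 868 called in both. Over all 15928 genes 903 did, 2.32% as positive and 3.35% as negative. Genes called in only 1 kind of mouse were picked from the same fit, which favours a small interaction p. Their counts are therefore not to be read against the share over all genes. The median interaction over all genes was -0.02 on the log2 scale, and -0.01 without conventional pregnant replicate 2. Its 95% interval lay wholly within 1 log2 unit on either side of 0, that is within a 2-fold difference, for 8429 genes (52.9%). Among the 2281 genes called with pregnancy in either kind of mouse, 1243 did so (54.5%).

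**Figure D1:**
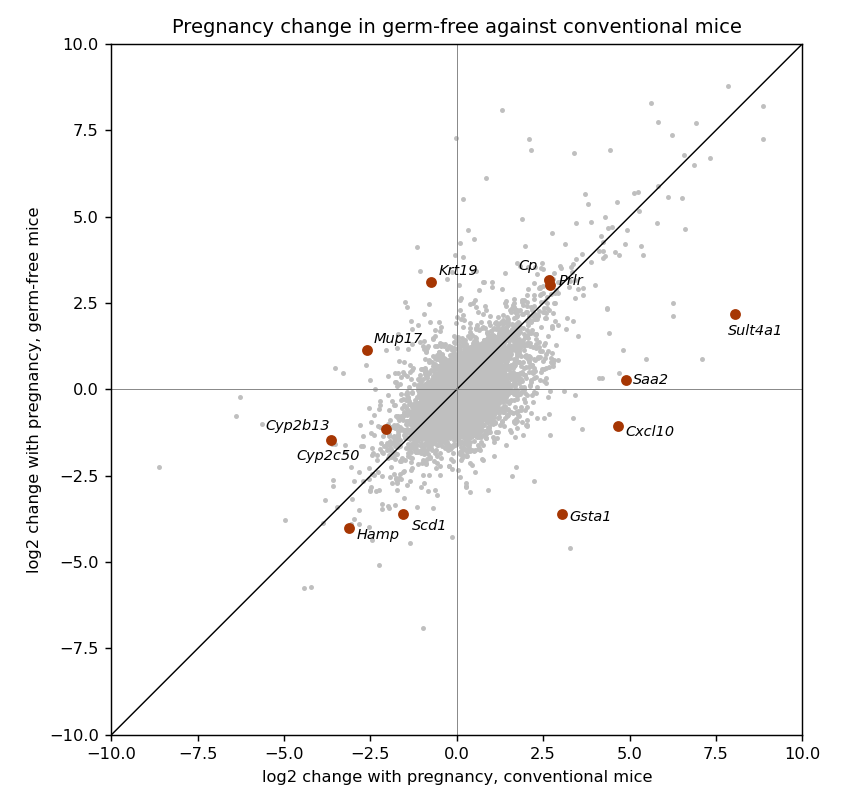
Each point is 1 of the tested genes, with its log2 change with pregnancy in conventional mice on the horizontal axis and in germ-free mice on the vertical axis; the diagonal marks equal changes, and 7 genes lie outside the axes. Cyp2b13, Mup17 and Krt19 lie above the diagonal and Scd1, Sult4a1, Gsta1, Saa2 and Cxcl10 below it, while Prlr and Cp lie close to it.

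Cyp2b13, a female-biased P450 of mouse liver, had the smallest p of all positive genes. It lies on chromosome 7 (26061497 to 26096197, plus strand, GRCm38), beside its near-identical relative Cyp2b9. The 250 bases upstream of each start are shown to compare the 2 neighbouring genes, whose levels are given next. Capitals mark the bases that differ, of which there are 2 in the 250 bases (RefSeq, GRCm38.p6, plus strand, 5′ to 3′; Cyp2b13 chr7:26061245-26061494, Cyp2b9 chr7:26173159-26173408).
Cyp2b13: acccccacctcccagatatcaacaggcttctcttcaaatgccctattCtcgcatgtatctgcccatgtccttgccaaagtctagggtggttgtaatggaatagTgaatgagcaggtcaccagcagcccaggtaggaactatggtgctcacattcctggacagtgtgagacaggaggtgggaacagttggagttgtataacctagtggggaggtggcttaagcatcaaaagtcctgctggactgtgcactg
Cyp2b9: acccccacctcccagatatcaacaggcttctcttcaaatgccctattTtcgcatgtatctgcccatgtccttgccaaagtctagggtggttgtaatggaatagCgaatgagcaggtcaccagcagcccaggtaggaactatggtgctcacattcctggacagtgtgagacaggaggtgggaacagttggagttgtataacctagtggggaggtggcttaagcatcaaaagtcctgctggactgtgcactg
The transcripts were not compared here. Reads that close relatives share are divided between them by the estimate of the counts, so the level of each gene alone is uncertain.

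In conventional non-pregnant mice Cyp2b13 stood between 142 and 232 CPM with a median of 172, and in conventional pregnant mice at 15.7, 5.91, 20.4, 17.4 and 12.5 CPM. Germ-free non-pregnant mice had 91.6 to 283 CPM with a median of 248, and germ-free pregnant mice 74.3, 73.8, 79.0, 80.2 and 79.4 CPM. Both non-pregnant groups overlapped, whereas every germ-free pregnant mouse lay above every conventional pregnant mouse. The gene fell with pregnancy by 3.64 ± 0.29 on the log2 scale (SE) in conventional mice and by 1.47 ± 0.26 in germ-free mice. The interaction was 2.16 ± 0.37 (95% interval 1.41 to 2.92; edgeR adjusted p = 0.0717). Leaving out conventional pregnant replicate 2 gave 1.97 ± 0.32 (1.31 to 2.62; edgeR adjusted p = 0.0415). Leaving out each library in turn gave adjusted p-values from 0.0366 to 0.197, under 0.05 for 3 of the 22. Groups of pregnant mice that do not overlap were found for 175 genes (1.1%).

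Cyp2b9, also female-biased, had an interaction interval that included 0. It stood at 192 to 356 CPM in conventional non-pregnant mice and at 229, 52.5, 196, 167 and 133 CPM in conventional pregnant mice. Germ-free non-pregnant mice had 128 to 249 CPM and germ-free pregnant mice 172 to 251 CPM. All 4 groups overlapped, and the interaction was 0.70 ± 0.36 (-0.05 to 1.45), or 0.48 ± 0.27 without conventional pregnant replicate 2, whose level was the lowest of all. Cyp2b10, the P450 classically induced through the receptor CAR, had an interaction of -0.52 ± 0.71 (-1.99 to 0.94), or -0.80 ± 0.63 without that library.

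**Figure D2:**
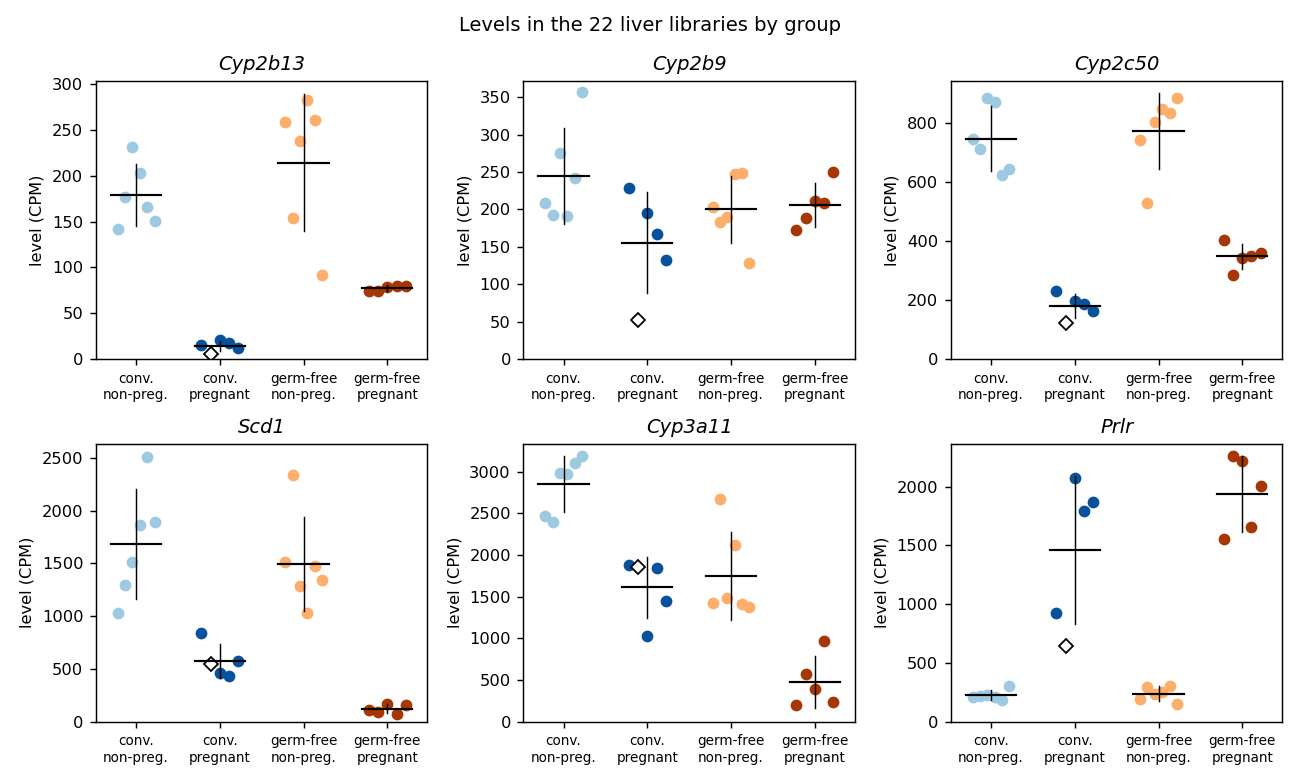
Level in CPM (vertical axis, linear from 0) of 6 genes in the 22 libraries by group; points are mice, lines the group mean, bars the SD, and the open diamond is conventional pregnant replicate 2. For Cyp2b13, Cyp2c50, Scd1 and Cyp3a11 the germ-free pregnant and conventional pregnant points do not overlap, while for Cyp2b9 and Prlr they do.

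Scd1, stearoyl-CoA desaturase, which makes monounsaturated fatty acids, had the smallest p of all negative genes (chromosome 19, 44394455 to 44407879, minus strand). Conventional non-pregnant mice had 1034 to 2513 CPM with a median of 1687, and conventional pregnant mice 844, 552, 465, 436 and 571 CPM. Germ-free non-pregnant mice had 1029 to 2341 CPM, and germ-free pregnant mice 112, 95.02, 171, 73.0 and 159.8 CPM. The non-pregnant groups covered the same range, and all germ-free pregnant mice lay below all conventional pregnant mice. Scd1 fell by 1.55 ± 0.26 on the log2 scale in conventional and by 3.62 ± 0.29 in germ-free mice. The interaction was -2.06 ± 0.36 (-2.82 to -1.31; edgeR adjusted p = 0.0717), and -2.07 ± 0.37 without conventional pregnant replicate 2 (edgeR adjusted p = 0.109). Adjusted p-values were 0.0503 to 0.262 when each library was left out in turn. No other gene had an adjusted p under 0.863 in the 22-library edgeR fit.

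Of 24 tested genes of fatty acid and triglyceride synthesis, 0 had a positive and 1, Scd1, a negative interaction at an unadjusted p under 0.05. Over all genes 2.32% were positive and 3.35% negative. The same counts held for the list without conventional pregnant replicate 2, where 2.18% and 2.32% of all genes passed. Their median interaction was -0.08, and -0.19 without conventional pregnant replicate 2. With pregnancy 4 of them rose and 6 fell in conventional mice, and 2 rose and 8 fell in germ-free mice. Of all genes 5.49% rose and 3.52% fell in conventional mice, and 7.15% and 3.6% in germ-free mice.

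Sult4a1, a cytosolic sulfotransferase family member best known from brain, was barely detected outside conventional pregnancy. The 6 conventional non-pregnant libraries held 2 counts together, and the conventional pregnant libraries stood at 0.912, 1.27, 8.45, 7.80 and 7.37 CPM, 568 counts in all. Germ-free non-pregnant libraries held 12 counts, and germ-free pregnant libraries 42 counts, at 0.0612, 0.125, 0.976, 0.233 and 0.623 CPM. The pooled rate was 357 times as high in pregnant as in non-pregnant conventional mice (95% counting interval 98.4 to 2955) and 4.97 times in germ-free mice (2.57 to 10.4). These intervals cover counting error only. The pregnant groups overlapped, since 1 germ-free mouse at 0.976 CPM exceeded 1 conventional mouse at 0.912 CPM. With pregnancy the gene rose in conventional mice (log2 change 8.05 ± 0.93, edgeR adjusted p = 2.88e-06), while in germ-free mice the change was 2.17 ± 0.80 (edgeR adjusted p = 0.0867). The interaction was -5.87 ± 1.37, a value that depends on the prior count at such levels, with an adjusted p of 0.863 by edgeR and 0.0119 by DESeq2. With conventional pregnant replicate 2 left out, the edgeR values were -6.12 ± 1.32 and 0.664. The other genes that DESeq2 called, Gm20708 (positive) and Gm10925, Gm28661 and Rps23-ps1 (negative), had a count in only 11, 9, 7 and 7 of the 22 libraries, and edgeR's adjusted p was 0.863 for each.

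Cyp2c50 is a P450 that fell with pregnancy in both kinds of mice. Conventional non-pregnant mice had 625 to 884 CPM and conventional pregnant mice 231, 121, 197, 188 and 163 CPM. In germ-free mice the levels were 528 to 885 CPM without pregnancy and 403, 285, 344, 350.4 and 359 CPM with it. The pregnant groups did not overlap. The change was -2.05 ± 0.18 in conventional and -1.15 ± 0.17 in germ-free mice, and the interaction was 0.90 ± 0.23 (0.41 to 1.38; edgeR adjusted p = 0.863), or 0.79 ± 0.22 without conventional pregnant replicate 2. Its close relative Cyp2c54 had an interaction of 1.03 ± 0.29 (0.88 ± 0.26 without), again with pregnant groups that did not overlap: 144, 84.0, 210.0, 186 and 155 CPM in conventional and 287 to 375 CPM in germ-free mice. The Cyp2c genes are close relatives of each other too, so their single values share the uncertainty given for Cyp2b13.

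The remaining genes with the smallest p in each direction were Wbp1, Dym, Krt19, Plekha1, Tra2a and Fut11, none of which was called in either edgeR fit. Wbp1, which binds WW domains, had 0.62 ± 0.17 (0.59 ± 0.17 without conventional pregnant replicate 2), and Dym, a Golgi protein, 0.64 ± 0.18 (0.55 ± 0.17 without). Dym fell in conventional pregnancy from 21.2 ± 2.16 CPM (SD, n = 6) to 13.9 ± 2.60 CPM (n = 5), against 19.0 ± 2.30 CPM and 19.4 ± 2.38 CPM in germ-free mice. Plekha1, a phosphoinositide-binding protein, had -1.09 ± 0.26 (-0.88 ± 0.22 without). It was at 6.47, 10.3, 5.78, 5.57 and 5.75 CPM in conventional pregnant mice and at 3.11 to 4.42 CPM in germ-free pregnant mice. The splicing regulator Tra2a (-1.07 ± 0.26, and -0.91 ± 0.25 without) and the fucosyltransferase Fut11 (-1.24 ± 0.32, and -1.30 ± 0.32 without) fell with pregnancy in germ-free mice, from non-pregnant levels that lay above those of all conventional non-pregnant mice. Fut11 went from 7.76 ± 0.657 CPM (n = 6) to 4.22 ± 1.52 CPM (n = 5), against 4.42 ± 1.21 CPM and 5.65 ± 1.18 CPM in conventional mice. In these 2 genes it was thus the non-pregnant groups that were apart. Groups of non-pregnant mice that do not overlap were found for 127 genes (0.797%).

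Krt19, a keratin of bile duct cells, had an interaction of 3.83 ± 1.01, and 3.84 ± 1.08 without conventional pregnant replicate 2, but germ-free pregnant replicate 2 held 62.8 CPM and the other 4 mice of its group 2.43 to 3.242 CPM. Conventional pregnant mice had 0.940 to 1.25 CPM, so the pregnant groups did not overlap without that library either. The interaction was 1.43 when it was left out. Ctse, Car9 and Krt19 were high in the same library (Ctse 16.4 CPM against at most 0.963 in all others, Car9 12.5 CPM against at most 1.05). The 9 tested cholangiocyte markers had a median interaction of 1.55, which was 1.43 without conventional pregnant replicate 2 and -0.03 without germ-free pregnant replicate 2. Their summed level was 36.7 to 170.4 CPM in germ-free pregnant and 37.7 to 41.1 CPM in conventional pregnant mice. In bulk liver RNA, more cells of a type and more RNA per cell cannot be told apart.

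The drug-metabolising P450 genes leaned to positive interactions, towards a smaller fall or larger rise in germ-free mice. Of 57 tested, 43 were above 0, and 14 were positive and 2 negative at an unadjusted p under 0.05, against 2.32% and 3.35% of all genes. When conventional pregnant replicate 2, the library with the lowest P450 level, was left out, 11 were positive and 2 negative, against 2.18% and 2.32% of all genes. The median was 0.38, and 0.27 without that library, where the median over all genes was near 0. With pregnancy 9 of these genes rose and 13 fell in conventional mice, and 11 rose and 8 fell in germ-free mice. The shares over all genes were 5.49% and 3.52% in conventional and 7.15% and 3.6% in germ-free mice.

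Within the family the direction differed by gene. The female-biased Cyp2c39 rose in germ-free pregnancy to 10.7 ± 2.91 CPM (SD, n = 5) from 4.71 ± 1.86 CPM (n = 6) and stood at 4.14 ± 1.502 CPM (n = 5) and 4.28 ± 0.731 CPM (n = 6) in conventional pregnant and non-pregnant mice (interaction 1.23 ± 0.38, and 1.05 ± 0.35 without conventional pregnant replicate 2). Cyp2c69 rose likewise only past the threshold in germ-free mice, with an interaction of 1.22 ± 0.43 (1.54 ± 0.40 without conventional pregnant replicate 2). Cyp3a16, a female-biased Cyp3a gene, rose in both, from 0.635 to 27.4 CPM in conventional non-pregnant mice to 170.4 to 365 CPM, and from 0.213 to 11.2 CPM to 269.9 to 474 CPM in germ-free mice. Its interaction was 2.49 ± 0.96 (2.35 ± 0.99 without), while the pregnant groups overlapped and germ-free non-pregnant levels were low. The intervals of its close relatives Cyp3a41a, Cyp3a41b and Cyp3a44 all included 0, with interactions of 1.03 ± 0.93, 1.15 ± 1.11 and 0.96 ± 0.72. Without conventional pregnant replicate 2 the interactions were 0.82 ± 0.94, 0.89 ± 1.09 and 0.77 ± 0.72. Germ-free non-pregnant replicate 6 held 3.20 CPM of Cyp3a41a, against 343 to 809 CPM in the rest of its group. It was also the lowest of that group for Cyp3a16 and Cyp3a41b, while replicate 2 was the lowest for Cyp3a44. A low level in that group raises the interaction.

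Cyp3a11, the main drug-oxidising Cyp3a enzyme of mouse liver, and Cyp2c55 went the other way. Cyp3a11 stood at 2399 to 3185 CPM in conventional non-pregnant mice and at 1882, 1857, 1033, 1844 and 1451 CPM in conventional pregnant mice. Germ-free non-pregnant mice had 1377 to 2675 CPM and germ-free pregnant mice 202, 571, 389, 972 and 242 CPM. The germ-free pregnant mice lay below all conventional pregnant mice. The non-pregnant groups overlapped only through germ-free replicate 2, at 2675 CPM, with means of 2853 CPM in conventional and 1749 CPM in germ-free mice. The germ-free level was thus already lower without pregnancy. The change was -0.82 ± 0.30 in conventional mice (edgeR adjusted p = 0.0966) and -1.88 ± 0.32 in germ-free mice (edgeR adjusted p = 0.000253). The interaction was -1.06 ± 0.43 (-1.94 to -0.18; edgeR adjusted p = 0.863), with an interval of -1.91 to -0.09 without conventional pregnant replicate 2. Cyp2c55 fell in germ-free mice from 4.38 to 25.6 CPM to 0.917 to 2.12 CPM, and had an interaction of -1.81 ± 0.55 (-1.46 ± 0.54 without). Conventional mice had 2.53 to 5.83 CPM without pregnancy and 1.25 to 3.63 CPM with it. For this gene the pregnant groups overlapped, and germ-free non-pregnant levels reached above all conventional ones.

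The other drug-processing groups are counted at an unadjusted p under 0.05, which 2.32% of all genes passed as positive and 3.35% as negative, and 2.18% and 2.32% without conventional pregnant replicate 2. Of 47 other phase I enzymes 0 were positive and 0 negative in both fits, among them the flavin monooxygenase Fmo5 (-0.42 ± 0.32, and -0.36 ± 0.34 without) and the aldehyde dehydrogenase Aldh1a7 (0.12 ± 0.26, and 0.09 ± 0.27 without). Of 20 glucuronosyltransferase genes 3 were positive and 0 negative, and 2 and 1 without that library. The smallest p was that of Ugt1a10 (3.53 ± 0.99, and 3.37 ± 1.02 without), which shares exons with the rest of the Ugt1a locus. Sulfotransferases counted 2 positive and 1 negative of 17 in both fits. Glutathione genes counted 2 and 2 of 25 (2 and 1 without), and acetyl-, methyl- and amino acid-conjugating enzymes 1 and 0 of 19 (0 and 0 without). Among the glutathione transferases, Gsta1 had an interaction of -6.67 ± 1.88 that was -2.39 ± 1.52 without conventional pregnant replicate 2. That library held 56.1 CPM, and germ-free non-pregnant replicates 2 and 5 held 65.2 and 18.9 CPM, while the other 19 libraries held 0.124 to 3.61 CPM.

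On the same rule, transporters and bile acid genes gave 2 positive and 0 negative among 19 uptake carriers (3 and 0 without conventional pregnant replicate 2) and 0 and 1 among 19 efflux pumps (0 and 0 without). Bile acid synthesis genes gave 2 and 0 of 15 (1 and 0 without), and xenobiotic and bile acid sensors 0 and 1 of 20 in both fits. Slc22a7, the organic anion transporter OAT2, rose only in germ-free mice past the threshold, from 17.7 ± 7.52 CPM (SD, n = 6) to 60.5 ± 6.98 CPM (n = 5), with an interaction of 1.39 ± 0.48 (1.17 ± 0.44 without conventional pregnant replicate 2). Conventional pregnant mice overlapped this range at 17.5 to 69.7 CPM. Abcc3, the basolateral efflux pump MRP3, fell in both, from 181 to 272 CPM to 181, 69.1, 24.1, 30.8 and 22.1 CPM in conventional mice and from 160.1 to 255 CPM to 17.5 to 56.9 CPM in germ-free mice. Its interaction was -0.83 ± 0.56 (-1.99 to 0.33), -0.81 ± 0.59 without conventional pregnant replicate 2, and 0.012 without conventional pregnant replicate 1, which lay within the non-pregnant range. Cyp7a1, which catalyses the first and limiting step from cholesterol to bile acids, had 0.09 ± 0.64 (-1.23 to 1.42) with all libraries and -0.19 ± 0.51 without conventional pregnant replicate 2. Nfe2l2, the factor NRF2, rose in conventional pregnancy and had an interaction of -0.51 ± 0.20 (-0.55 ± 0.21 without).

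Prlr, Ghr, Cp, Aldh1a7 and Hamp, which passed with pregnancy in both kinds of mice, had interaction intervals that included 0. Prlr, the prolactin receptor, was at 187 to 303 CPM in conventional non-pregnant and 148 to 308 CPM in germ-free non-pregnant mice. It reached 928, 646, 2073, 1794 and 1870.3 CPM in conventional pregnant and 1553, 2259, 2218, 1657 and 2005 CPM in germ-free pregnant mice. Replicates 1 and 2 of the conventional pregnant group were the lowest of the 10. Both carried the age label 70, and replicates 3 to 5 of that group the label 77. The interaction was 0.33 ± 0.35 (-0.40 to 1.05), and 0.14 ± 0.30 (-0.48 to 0.76) without conventional pregnant replicate 2. Ghr, the growth hormone receptor, had 0.55 ± 0.40 (-0.28 to 1.37, and 0.32 ± 0.30 without). In conventional pregnant replicates 1 and 2 it stood at 860 and 542 CPM, against 2783, 2365 and 2291 CPM in replicates 3 to 5. Leaving out replicate 2 alone does not remove this split, whose cause was not tested. Cp, ceruloplasmin, the copper-carrying ferroxidase, had 0.50 ± 0.33 (-0.20 to 1.19, and 0.46 ± 0.34 without). Aldh1a7 rose from 134 ± 28.1 to 1061 ± 242 CPM in conventional and from 153 ± 29.8 to 1308 ± 206 CPM in germ-free mice, with an interaction interval of -0.41 to 0.65. Hamp, the iron hormone hepcidin, fell in both. It stood at 92.0 to 207 CPM in conventional pregnant mice and at 35.7, 150.4, 6.00, 1.54 and 4.74 CPM in germ-free pregnant mice. Of the germ-free pregnant mice only replicate 2, at 150.4 CPM, lay within the conventional pregnant range. The interaction of Hamp was -0.91 ± 1.03 (-0.83 ± 1.07 without), with an interval from -3.04 to 1.22. With limma-voom on all libraries it was -3.17 (limma-voom adjusted p = 0.990), so its size depended on the method.

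**Figure D3:**
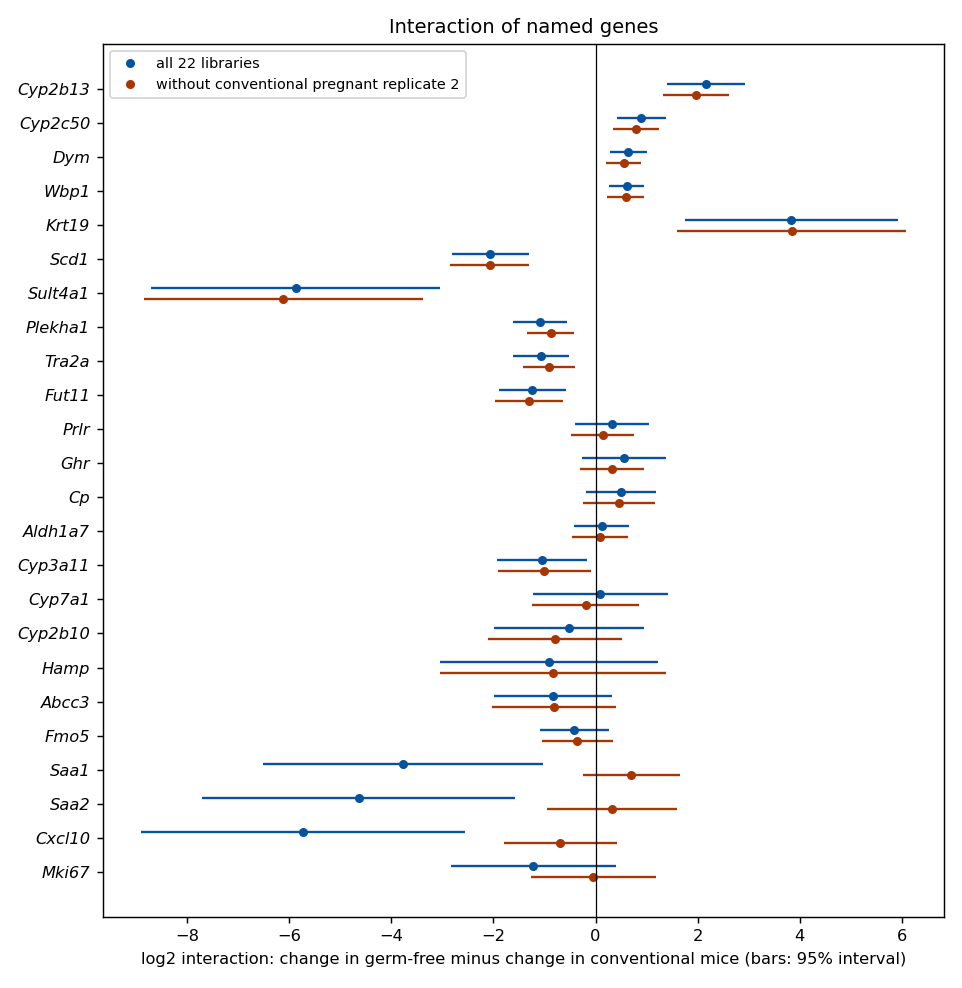
Log2 interaction (horizontal axis) of 24 named genes with 95% intervals from the edgeR fit, with all 22 libraries and without conventional pregnant replicate 2. Prlr, Ghr, Cp and Aldh1a7 have intervals that include 0 in both fits, while without that library Saa1 and Saa2 change sign and the interval of Cxcl10 includes 0.

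Growth hormone, prolactin and STAT5 signalling genes had a median interaction near 0 (18 tested, 1 positive and 2 negative at an unadjusted p under 0.05, and 0 and 0 without conventional pregnant replicate 2). Many sex-biased liver genes are known to respond to the pattern of growth hormone release. Of 27 female-biased genes, some of which are P450 genes counted above, 5 were positive and 1 negative at an unadjusted p under 0.05, with and without that library, against the 2.32% and 3.35% of all genes given above. The negative gene was Hao2, a hydroxy acid oxidase, which rose in conventional pregnancy only past the threshold (interaction -1.99 ± 0.66, and -2.01 ± 0.68 without). Sult3a1, a female-biased sulfotransferase, rose in both (1.73 ± 0.70, and 1.51 ± 0.69 without). Of 23 male-biased genes 3 were positive and 0 negative, and 3 and 1 without that library. The major urinary protein gene Mup17 had the smallest p of them (3.74 ± 1.09, and 3.43 ± 0.96 without). It fell in conventional mice from 426 to 1619.9 CPM to 214, 5.30, 295, 73.1 and 159 CPM, and went from 0.604 to 33.7 CPM to 4.42 to 72.1 CPM in germ-free mice. All germ-free non-pregnant mice lay below all conventional non-pregnant mice, where 0.797% of all genes had non-pregnant groups that did not overlap. Mup genes are near-identical copies and single values are uncertain.

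Cholesterol synthesis genes had interactions on the same side of 0. All 24 tested were above 0, and 22 without conventional pregnant replicate 2. At an unadjusted p under 0.05 there were 3 positive and 0 negative genes in both fits, Mvk, Tm7sf2 and Fdft1, enzymes from mevalonate to sterol. The shares over all genes were 2.32% and 3.35%, and 2.18% and 2.32% without that library. The median was 0.74, and 0.65 without that library. The median change with pregnancy was -0.43 in conventional and 0.26 in germ-free mice. With pregnancy 2 of them rose and 0 fell in germ-free mice, against 7.15% and 3.6% of all genes. Mvk, mevalonate kinase, was at 29.0 ± 8.82 CPM (SD, n = 6) in conventional and 13.2 ± 4.78 CPM (n = 6) in germ-free non-pregnant mice. These 2 groups did not overlap, as was so for 0.797% of all genes. In the pregnant groups Mvk was at 21.2 ± 7.62 and 21.2 ± 6.398 CPM (n = 5 each). The summed level of the list was 3794 to 5618 CPM and 1079.7 to 3817 CPM in conventional and germ-free non-pregnant mice. In pregnant mice it was 3063 to 5080 CPM and 2012 to 4437 CPM. The germ-free non-pregnant group was thus the low one. Its lowest library was replicate 2, and the list's median interaction without it was 0.52. These genes are known targets of the factor SREBP2 and are not independent of each other.

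Other metabolic lists gave no more than 2 genes in either direction at an unadjusted p under 0.05. Glucose metabolism gave 2 positive and 0 negative of 20, against 2.32% and 3.35% of all genes. Without conventional pregnant replicate 2 it gave 1 and 0, against 2.18% and 2.32%. Irs2, the insulin receptor substrate, had the smallest p there (1.96 ± 0.68, and 1.91 ± 0.71 without): germ-free pregnant mice stood at 12.2, 14.3, 44.9, 48.5 and 76.7 CPM and the other 3 groups at 2.72 to 20.0 CPM. The 13 mitochondrially encoded protein genes were all above 0, with a median of 0.60 (0.44 without conventional pregnant replicate 2) and 0 at an unadjusted p under 0.05 in both fits. Their summed level was 76897 to 180163 CPM in conventional pregnant mice other than replicate 2, where it was 46440 CPM, and 86894 to 299380 CPM in germ-free pregnant mice. The groups overlapped.

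**Figure D4:**
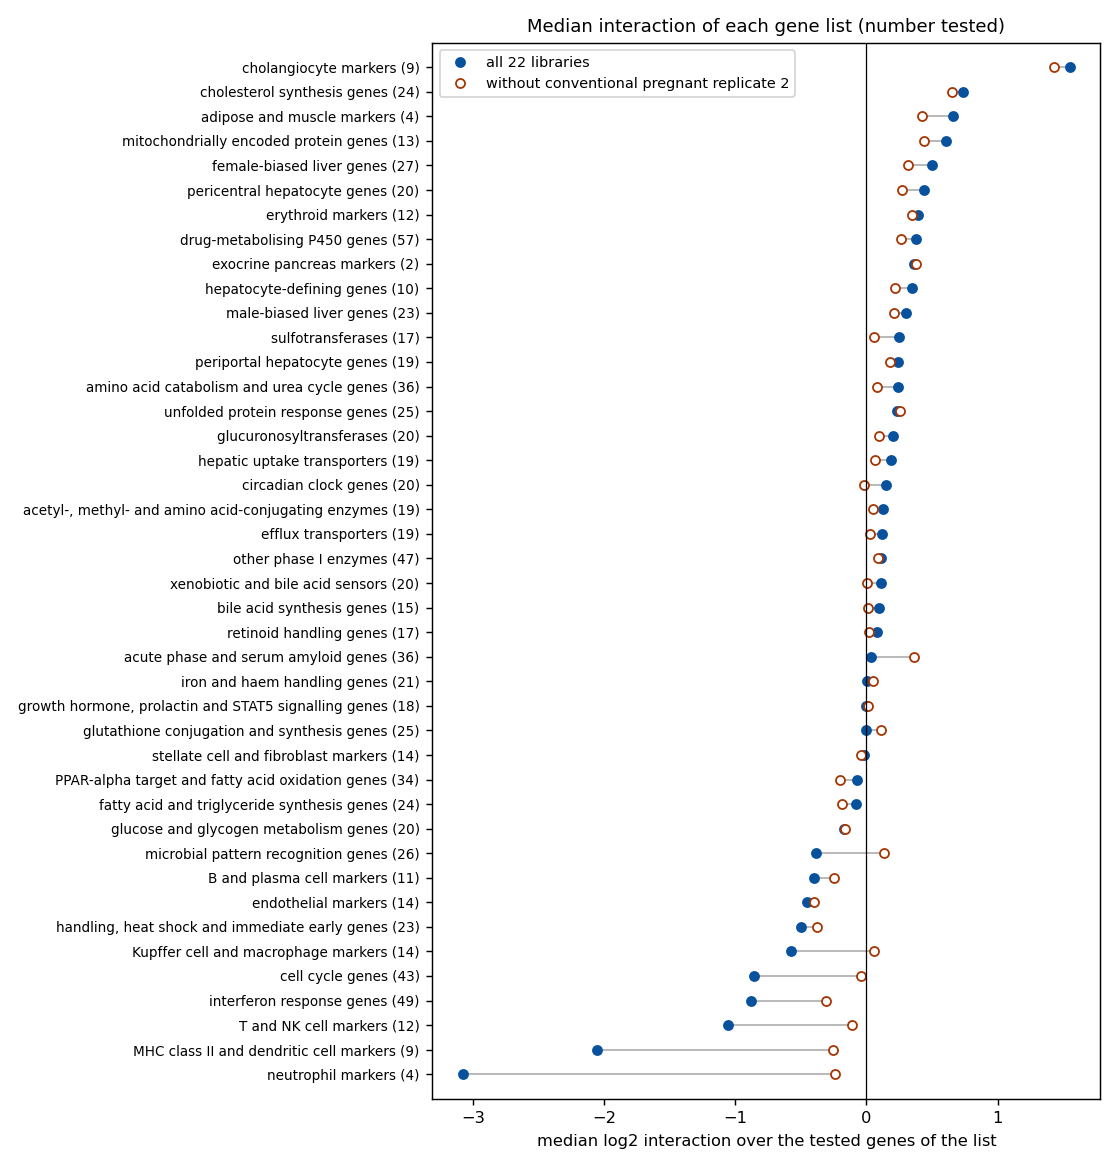
Median log2 interaction over the tested genes of each of 42 lists (horizontal axis), with the number tested in brackets, with all 22 libraries (filled) and without conventional pregnant replicate 2 (open). The lists of neutrophil, MHC class II, T and NK cell, interferon and cell cycle genes move towards 0 without that library, and cholesterol synthesis and P450 genes stay above 0.

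Immune and cell cycle genes gave the most negative medians, and these were closer to 0 without conventional pregnant replicate 2. Of 49 interferon response genes, 47 were below 0, and 0 were positive and 20 negative at an unadjusted p under 0.05, against 2.32% and 3.35% of all genes. Without that library 43 were below 0 and 1 passed as negative, Trim30a, against 2.32% of all genes, and the median went from -0.88 to -0.31. Of 9 MHC class II and dendritic cell markers 8 were negative, and 0 without it (median -2.05 and -0.26), when 8 of 9 were still below 0. Of 43 cell cycle genes 4 were negative, and 0 without it (median -0.86 and -0.04). The 4 tested neutrophil markers of 12 measured had a median of -3.08, and -0.24 without it. The 12 tested T and NK cell markers had -1.06 and -0.11, and the 14 Kupffer cell markers -0.58 and 0.06. Germ-free non-pregnant replicate 1, which stayed in both fits, was the highest of its group for several of these immune genes. It held 39.0 CPM of Cxcl9 (against 4.37 to 13.4), 276 CPM of Cd74 (49.6 to 109) and 87.4 CPM of H2-Aa (14.0 to 32.0). A high level in that group lowers the interaction.

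Cxcl10, an interferon-induced chemokine, was an example of the change without conventional pregnant replicate 2. Conventional pregnant mice held 3.07, 345, 1.83, 1.81 and 1.99 CPM, and germ-free pregnant mice 2.63, 1.49, 2.18, 1.40 and 1.29 CPM. The interaction was -5.73 ± 1.53, and -0.69 ± 0.53 without replicate 2. Saa1 and Saa2, serum amyloid A proteins of the acute phase, were at 2049 and 2156 CPM in that mouse and at 16.4 to 26.1 and 8.67 to 16.3 CPM in the other 4. Their interactions were -3.78 ± 1.32 and -4.64 ± 1.48, and 0.70 ± 0.46 and 0.33 ± 0.61 without it. The proliferation marker Mki67 had -1.22 ± 0.78, and -0.04 ± 0.59 without it.

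Promoters of interferon list genes were searched for a motif known from interferon-stimulated genes. The core of the interferon-stimulated response element, GAAA followed by any 2 bases and a further GAAA, was searched on both strands in the 250 bases upstream of each RefSeq start. It occurred in 20 of the 37 tested interferon list genes with an entry, and in 3.46% of 27025 genes with an entry. The 3 genes shown were picked as holding the motif and being far higher in conventional pregnant replicate 2 than in the rest of its group. Of them only Cxcl10 is in the interferon list, and the motif was not counted among all genes raised in that library. Capitals mark the motif in their windows (GRCm38.p6, minus strand, 5′ to 3′, with Cxcl10 at chr5:92349068-92349127, Socs1 at chr16:10785585-10785644 and Saa3 at chr7:46715767-46715826).
Cxcl10: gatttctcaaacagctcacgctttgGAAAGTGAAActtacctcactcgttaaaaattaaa
Socs1: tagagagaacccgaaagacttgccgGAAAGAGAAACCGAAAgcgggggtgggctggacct
Saa3: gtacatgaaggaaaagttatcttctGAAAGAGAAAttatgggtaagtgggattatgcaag
Socs1, an inhibitor of cytokine signalling, was at 36.2 CPM in that mouse and at 0.104 to 0.612 CPM in the other 4. Saa3 was at 832 CPM against 3.65 to 8.56 CPM. A match is a description of the sequence and does not show that a factor was bound.

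**Figure D5:**
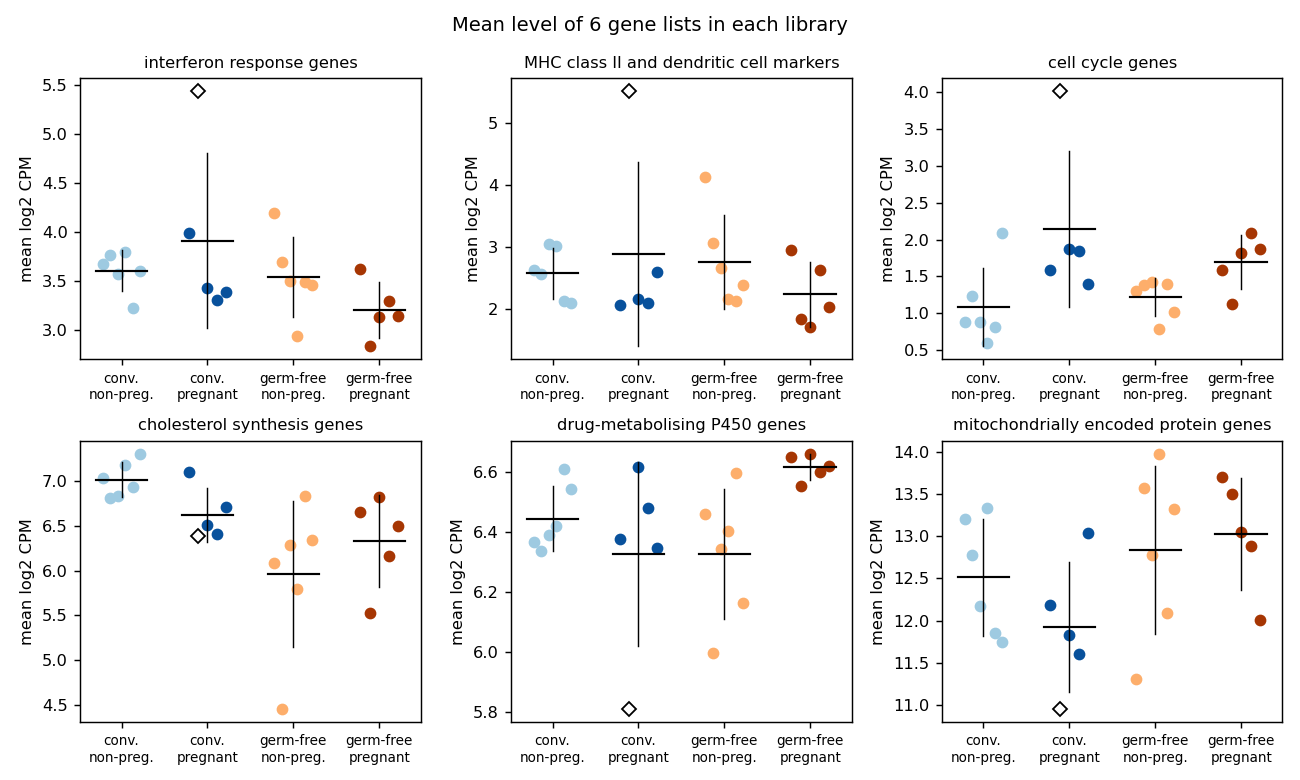
Mean log2 CPM of 6 gene lists in each library (vertical axes, not from 0) by group; points are mice, lines the group mean, bars the SD, and the open diamond is conventional pregnant replicate 2. That mouse is above all others for interferon, MHC class II and cell cycle genes and below all others for P450 and mitochondrially encoded genes.

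Acute phase genes had more positive than negative interactions once that library was left out. Of 36 tested, 2 were positive and 6 negative at an unadjusted p under 0.05 with all libraries, against 2.32% and 3.35% of all genes. Without that library 6 were positive and 0 negative, against 2.18% and 2.32% of all genes. The median was 0.03 with all libraries and 0.36 without it. Lcn2, lipocalin 2, an iron-sequestering protein of the acute phase, changed sign. It was at 8.79, 885, 13.0, 4.14 and 6.32 CPM in conventional pregnant mice and at 59.5, 20.6, 23.8, 36.4 and 41.1 CPM in germ-free pregnant mice, with non-pregnant levels of 3.00 to 21.5 CPM. The interaction was -2.02 ± 1.37 with all libraries and 2.50 ± 0.64 (1.17 to 3.82) without replicate 2, with an edgeR adjusted p of 1.00 (unadjusted p = 0.000731). Without that library all germ-free pregnant mice lay above all conventional pregnant mice.

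Endothelial markers had 0 positive and 4 negative of 14 in both fits, against 3.35% negative of all genes and 2.32% without conventional pregnant replicate 2, with medians of -0.45 and -0.40. In the second fit Ptprb stood in the place of Emcn, while Pecam1, Tie1 and Oit3 were in both. Pecam1 had the smallest p (-0.61 ± 0.22, and -0.49 ± 0.22 without). The summed endothelial level was 277 to 393 CPM in conventional pregnant and 218 to 363 CPM in germ-free pregnant mice, ranges that overlapped. Handling, heat shock and immediate early genes had 6 negative of 23, and 4 of 24 without that library. Hspa1b, an inducible heat shock protein 70 gene, fell in germ-free pregnancy from 27.8, 5.16, 29.3, 24.5, 28.1 and 16.1 CPM to 3.43 to 7.85 CPM, and stood at 3.07 to 10.0 CPM in all conventional mice. Its interaction was -1.96 ± 0.53, and -2.01 ± 0.55 without that library. The difference lay in 5 of the 6 germ-free non-pregnant mice, and whether handling of those mice played a part was not tested. Erythroid markers rose for 2 of 12 in conventional and 7 of 12 in germ-free pregnancy, against 5.49% and 7.15% of all genes, while 0 of 12 had an interaction at an unadjusted p under 0.05, and 1, Slc4a1, without that library. Their summed level was 394 to 2301 CPM in conventional and 1782 to 3613 CPM in germ-free pregnant mice, and their part in the interaction of other genes was not tested.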

How the data were processed

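RNA-seq was made from the livers of 22 mice, 1 library each; total RNA and a non-stranded NEBNext Ultra RNA kit were used, per the labels' protocols. The authors deposited 1 table with an estimated count for each of 53392 genes in each library, without normalization. The submitters' processing notes name the build GRCm38.p6 and the tools Salmon 0.11.3 and edgeR 3.24.3; annotation release, summing of transcripts and read layout are not given in the sources used here. Such estimates divide reads between near-identical genes, and without strand reads of overlapping genes cannot be told apart. The expected counts as deposited were rounded to whole numbers, which moved 0.00829% of the counts.

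In R 4.3.3 with edgeR 4.0.16, genes were kept by the default filter (minimum count 10, minimum total 15), which left 15928 genes, or 16155 without conventional pregnant replicate 2. Libraries were scaled by TMM, and 1 quasi-likelihood model with 1 term per group gave both pregnancy changes and the interaction, with Benjamini-Hochberg adjustment over all genes and calls at an adjusted p under 0.05. Every adjusted p is from this fit unless DESeq2 1.42.0 or limma 3.58.1 is named. Standard errors come from the F statistic, and 95% intervals from the t distribution of the fit. Both changes enter the interaction, so they are not independent of it. CPM were taken with TMM-adjusted library sizes, and log2 CPM used a prior count of 2. Depth was 18064491 to 30036912 counts per library, and the median half-width of the interval was 0.672 (log2), or 0.499 for genes of at least 5 CPM in a group. Labels describe separate mice, so p-values measure the spread between mice. The fit was tested on simulated data.

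Members, the 42 gene lists and tests were chosen with earlier results of these data known. Named genes were, per direction, 5 of smallest p with an official symbol and at least 5 CPM in a group, the gene of smallest p in each list, and 15 preset genes. Other genes, such as Cyp2b9, Cyp2c54, Cyp2c39, Lcn2, Hao2, Ctse and Car9, were chosen after their values were seen. Many lists share members. Symbols came from GENCODE M21 (99.93% of IDs matched), coordinates from its GRCm38 gene models, and promoter windows from RefSeq, which had an entry for 45 of the 60 genes named by the rule. Of 50 pairs of libraries within a group the lowest mean chi-square per gene was 34.6, so none was a repeat of another.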

Additional observations from a re-analysis of the deposited data

Results flagged for a closer look

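Cyp2b13 (interaction 2.16), Scd1 (-2.06) and Sult4a1 (-5.87) are listed because at least 1 of the alternative analyses called their pregnancy changes different between germ-free and conventional mice, although edgeR on all 22 libraries did not.

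In 31 of 240 sets of 1 gene in 1 group (12.9%), 1 library lay far from the rest by Dixon's criterion, which chance alone meets in about 1 of 20. Most of these genes were named for a small interaction p, which 1 extreme library can itself bring about, so the share is not to be read against that rate. Conventional pregnant replicate 2 accounted for 17 of them. It was above the other 4 mice of its group for the immune genes Cxcl10 (345 CPM), Saa1 (2049 CPM), Saa2 (2156 CPM), Saa3 (832 CPM), Socs1 (36.2 CPM), Tnfaip3 (32.7 CPM against 0.801 to 1.91), Marco (289.98 CPM against 8.01 to 15.7), Gzma (13.3 CPM against 0.580 to 1.17) and Itgax (4.99 CPM against 0.415 to 0.836). It was also above them for Mki67 (63.4 CPM), Nusap1 (12.8 CPM against 1.78 to 2.47), Col3a1 (105.9 CPM against 43.6 to 54.5), Fgf21 (25.9 CPM against 0.383 to 1.00) and Plekha1 (10.3 CPM). It was below them for Cyp7a1 (17.8 CPM against 170.0 to 191), the cysteine dioxygenase Cdo1 (977 CPM against 1439 to 1574) and the bile acid conjugation enzyme Slc27a5 (175 CPM against 416 to 546).

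Germ-free non-pregnant replicate 2 was apart for the clock gene Arntl (2.51 CPM against 0.239 to 0.4659), Cyp2c50 (528 CPM against 743 to 885), Hspa1b (5.16 CPM) and Mup17 (0.604 CPM). Germ-free non-pregnant replicate 1 was high for Igha (2.05 CPM against 0.0526 to 0.107) and Socs1 (1.81 CPM against 0.533 to 0.678). Replicate 4 of that group was low for Nusap1 (0.474 CPM), and replicate 6 was high for Cela1 (16.3 CPM). Among germ-free pregnant mice, replicate 1 was high for Saa2 (40.9 CPM), replicate 2 for Krt19 (62.8 CPM) and replicate 3 for Cyp7a1 (248 CPM), and replicate 5 was low for Cela1 (5.03 CPM). Conventional pregnant replicate 5 was high for Cfd (1.25 CPM), and conventional non-pregnant replicate 6 for Tfr2 (484 CPM against 273 to 303).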

How the results depend on the processing

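The count of genes called for the interaction was 0 in each direction with other scalings, a stricter filter, mitochondrial genes left out, robust variance, an age covariate, and replicate 2 of both pregnant groups left out, the last chosen after seeing the data. It was 2 higher and 5 lower with DESeq2, 1 and 1 without a filter and with limma-voom, and 0 to 1 in each direction without each replicate in turn. Without conventional pregnant replicate 2, also chosen after seeing the data, it was 2 and 4 with DESeq2 and 1 and 0 with limma-voom. Without conventional pregnant replicate 1 the called genes were Ildr2 (higher) and 2010003K11Rik (lower). With the replicate number as a block, Cyp2b13 was the 1 gene called higher (edgeR adjusted p = 0.00784) and 0 were lower. Same-numbered libraries did not deviate together (correlations from -0.255 to 0.310, with 4 of 22 libraries closest to their own number). Pairing of mice by number was thus not seen, and such a comparison cannot show that there was none. Genes called lower in conventional pregnancy were 893 with DESeq2, and 377 to 668 without each replicate. In germ-free pregnancy, 1818 genes were higher and 1209 lower with limma-voom, 875 lower with DESeq2, and 810 to 1322 higher and 384 to 768 lower without each replicate. Without conventional pregnant replicate 2 these counts were 1807 and 1168 with limma-voom and 1026 lower with DESeq2. Signs changed for a few genes. Without each replicate in turn the interaction ranged from -1.08 to 0.012 for Abcc3, -0.0057 to 0.21 for Aldh1a7, -0.19 to 0.35 for Cyp7a1, -3.20 to 0.59 for Marco, -4.09 to 0.70 for Saa1, -5.10 to 0.33 for Saa2, -4.92 to 0.12 for Saa3 and -2.49 to 2.50 for Lcn2. The upper end for the last 5, and the lower end for Cyp7a1, came without conventional pregnant replicate 2. With limma-voom on all libraries the values were -0.18 for Cyp7a1, 0.26 for Saa1 and 1.68 for Lcn2, which was 0.60 with the block. With DESeq2, with limma-voom (both without conventional pregnant replicate 2) and with both pregnant replicates 2 left out, the values were -0.17, -0.41 and -0.15 for Cyp7a1, 0.64, 0.23 and 0.63 for Marco, and 0.71, 0.72 and 0.74 for Saa1. In the same order they were 0.35, 0.44 and 0.43 for Saa2, 0.14, 0.27 and 0.24 for Saa3 and 2.52, 2.18 and 2.64 for Lcn2. Mki67 was at 0.057 with both left out. The mitochondrial list has no value when those genes are left out. Depth and the number of mice leave a median half-width of 0.672 on the log2 scale, so smaller differences were mostly not detectable. That interval is not adjusted for the number of genes. Far larger differences also stayed uncalled, such as that of Cyp2b13 (2.16, edgeR adjusted p = 0.0717 with all libraries).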

Other observations

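Zonation genes gave values not described above. Of 20 tested pericentral hepatocyte genes, 19 had a positive interaction with all libraries and 18 without conventional pregnant replicate 2, with medians of 0.44 and 0.27. At an unadjusted p under 0.05 there were 1 positive gene, Gulo, and 0 negative genes, against 2.32% and 3.35% of all genes, and 2 and 0 without that library. With pregnancy 10 of the 20 fell in conventional mice and 3 fell in germ-free mice, against 3.52% and 3.6% of all genes. These counts include conventional pregnant replicate 2, and the difference between them was not tested. That library had the lowest summed pericentral level of all, at 3432 CPM against 6322 to 9261 CPM in the rest of its group. Of 19 periportal genes 3 were positive and 0 negative, and 0 and 0 without that library, with medians of 0.24 and 0.18. Unfolded protein response genes rose in both kinds of mice, 14 of 25 in conventional and 16 of 25 in germ-free pregnancy, against 5.49% and 7.15% of all genes. Their median interaction was 0.23 with 1 positive gene, Dnajb11, and 0.26 with 2 without that library. Clock genes had 0 positive and 0 negative of 20 in both fits.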
